A study of Mus musculus with 2 samples.

Results

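The *Sox21* gene lies near the end of mouse chromosome 14, and the transcripts measured around it were compared between wild-type and *Sox21* KO incisor. The region was taken as every array probe, controls aside, whose lower mm9 coordinate on chromosome 14 is 80000000 or above, without the probes named *Sox21*, *Cldn10*, *Scel*, *Klf5*, *Spry2* or *Fgf14*. This gave 336 members of 55679 probes in all. Of the members, 112 carry the name of a RefSeq gene (84 genes), 134 are probes for long intergenic non-coding RNA (lincRNA) regions and 90 have no gene name in the table used here. A member was called measured if the scanner software put it well above background in wild-type and in KO. That was so for 127 members, which include probes of 52 genes.

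Gene expression was measured by hybridizing RNA from the incisors of newborn mice to 1-colour Agilent microarrays with 60-base probes, with 1 array for each genotype. The wild-type mice were C57BL/6J, and the *Sox21* KO mice came as a gift, with their genetic background not given in the sources used here. The study's *Sox21*+/- mice carried GFP at the *Sox21* locus. The sample labels give the age of both as postnatal day 0, and how many animals supplied each RNA is not stated in them. The 2 arrays were on the same slide, and with 1 array for each genotype no difference has a replicate check, so all values are descriptions without a test. In whole incisor, fewer cells of a type and less RNA per cell cannot be told apart. DNA that is inherited together with the *Sox21* KO allele and the loss of *Sox21* itself cannot be told apart either.

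Sox21 is an HMG-box transcription factor of the SOX family, and the incisor holds ameloblasts, the epithelial cells that lay down enamel, and odontoblasts, which form dentin. Genes that lie next to each other on a chromosome can share regulatory DNA, and in knockout mice the DNA flanking a targeted gene stays linked to the altered allele through breeding. The distal end of mouse chromosome 14 is poor in genes over long stretches and holds some genes of the Slitrk and protocadherin families, the glypicans Gpc5 and Gpc6 and the host transcript of the Mir17 microRNA cluster.

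The letters of a few members are shown first, since *Dct* and *Dnajc3* are the neighbours of *Sox21* past 1.5-fold at their brightest probe and the probes are the non-coding members whose values are compared further on. Promoter windows of 250 bases before the gene start were taken from RefSeq (GRCm38.p6), in which 67 of 83 member genes had an entry, *Mir17hg* left aside, and 12 of the 13 genes under 2 Mb from *Sox21*, the exception being *Gpc6*. In the window of *Dct* (chr14:118052247-118052496, minus strand), capitals mark CATGTG, the core of the M-box bound by the melanocyte factor MITF, and ACAAT and ACAAAG, short forms of the site bound by SOX proteins, on either strand. In the window of *Dnajc3* (chr14:118937682-118937931, plus strand), capitals mark CCAAT and CCACG with 9 bases between them, the arrangement of the endoplasmic reticulum stress response element.
Dct: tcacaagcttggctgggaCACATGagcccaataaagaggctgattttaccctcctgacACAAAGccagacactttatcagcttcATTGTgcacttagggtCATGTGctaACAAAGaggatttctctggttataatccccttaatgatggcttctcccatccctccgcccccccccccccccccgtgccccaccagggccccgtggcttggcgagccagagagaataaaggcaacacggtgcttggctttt
Dnajc3: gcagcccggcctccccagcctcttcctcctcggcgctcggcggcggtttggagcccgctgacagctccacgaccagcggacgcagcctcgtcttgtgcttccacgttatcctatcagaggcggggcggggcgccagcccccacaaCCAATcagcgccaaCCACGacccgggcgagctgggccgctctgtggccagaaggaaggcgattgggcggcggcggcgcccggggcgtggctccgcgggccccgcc

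The *Dct* window held 2 matches to CATGTG, 1 to ACAAT and 2 to ACAAAG. Of 32851 RefSeq promoter windows of that length, 12.3% held CATGTG, 27.7% ACAAT and 16.5% ACAAAG on either strand. Among the 79 windows of the member genes these letters occurred in 11, 18 and 13, which is 13.9%, 22.8% and 16.5%. Each occurred in 3 of the 15 windows of genes under 2 Mb from *Sox21*. The window of *Oxgr1*, above background on neither array, held 1 match to each. The spaced pair CCAAT and CCACG occurred in 0.113% of all windows and in 1 of the 79, that of *Dnajc3*. A match describes the letters in the window and not a bound site, and the arrays do not measure binding.

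The probes shown here, in mm9 coordinates and as deposited, are lincRNA and microRNA host probes. The first pair lies at chr14:115442040-115442099 (plus strand) and chr14:115442039-115442098 (minus strand) and reads the opposite strands of the same stretch, with the 59 shared bases in capitals. The Mir17hg sequence at chr14:115445828-115445887 (plus strand) was placed on the array under 2 probe names, with all 60 bases shared. The last lies at chr14:99753321-99753380 (minus strand) and was bright on the wild-type array alone.
Plus-strand lincRNA probe: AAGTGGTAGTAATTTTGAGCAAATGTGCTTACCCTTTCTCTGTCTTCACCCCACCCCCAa
Minus-strand lincRNA probe: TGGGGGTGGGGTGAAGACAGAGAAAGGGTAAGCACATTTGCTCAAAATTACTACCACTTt
Mir17hg probe: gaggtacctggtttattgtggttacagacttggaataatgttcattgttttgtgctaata
Wild-type-only lincRNA probe: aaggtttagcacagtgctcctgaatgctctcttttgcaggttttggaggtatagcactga

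Signals below are the processed, background-subtracted signals of each array in arbitrary units. The log2 ratio is *Sox21* KO over wild-type after each signal is divided by the 75th percentile of its array, 268 for wild-type and 276 for KO, and the scanner error is the error of that ratio given by the scanner's own error model for 1 spot. *Sox21* itself, which checks the labels, gave signals of 1362 in wild-type and 659 in KO at chr14:118633351-118633410, a log2 ratio of -1.09, and of 286 and 103 at chr14:118633788-118633847, a log2 ratio of -1.51. Signal therefore remained in the KO array at both probes. Whether these probes lie in a deleted part of the gene is not given in the sources used here. For 274 probes with several spots well above background on both arrays, the SD of the log2 ratio over spots had a median of 0.09. One of them is a member, the *Rbm26* probe, whose 10 spots ranged from -0.09 to 0.21 around a mean of 0.01. *Rbm26* encodes an RNA-binding zinc finger protein.

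Taken as a whole, the region did not stand apart from the rest of the chromosome in these 2 arrays. The median log2 ratio was -0.04 over the 127 measured members, 0.00 over the 881 measured probes of chromosome 14 below the limit and 0.00 over the 24723 on other chromosomes. The median size of the log2 ratio, whatever its direction, was 0.153 in the region, 0.157 in the rest of chromosome 14 and 0.157 on other chromosomes. Of the measured members, 55 had a ratio above 0 and 72 below it. The split was 453 and 428 in the rest of chromosome 14, and 12962 and 13008 over all measured probes. It depends on the scaling: on the array median, the median log2 ratio of the members was 0.04 and that of the rest of the chromosome 0.08. The share of probes that were measured was lower in the region, with 37.8% against 45.1% in the rest of the chromosome and 46.6% of all probes.

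At least 1.5-fold higher in KO were 5 of the 127 measured members (3.94%), where 3.03% of all 25970 measured probes were. At least 1.5-fold lower were also 5 members, against 3.87% of all measured probes. Past 2-fold were 1 member in each direction, with 0.635% of all measured probes higher and 0.793% lower. With 1 probe for each gene, 2 of 52 measured genes were past 1.5-fold higher, *Itgbl1* and *Dct*, and 2 lower, *Obi1* and *Dnajc3*, against 3.21% and 2.98% of all 13817 measured genes. These shares are near the background and give no count that is particular to the region. When arrays were scaled on their median instead, the split over all measured probes turned from 788 higher and 1004 lower to 1088 higher and 713 lower, and that of the members from 5 and 5 to 7 and 4.

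**Figure D1:**
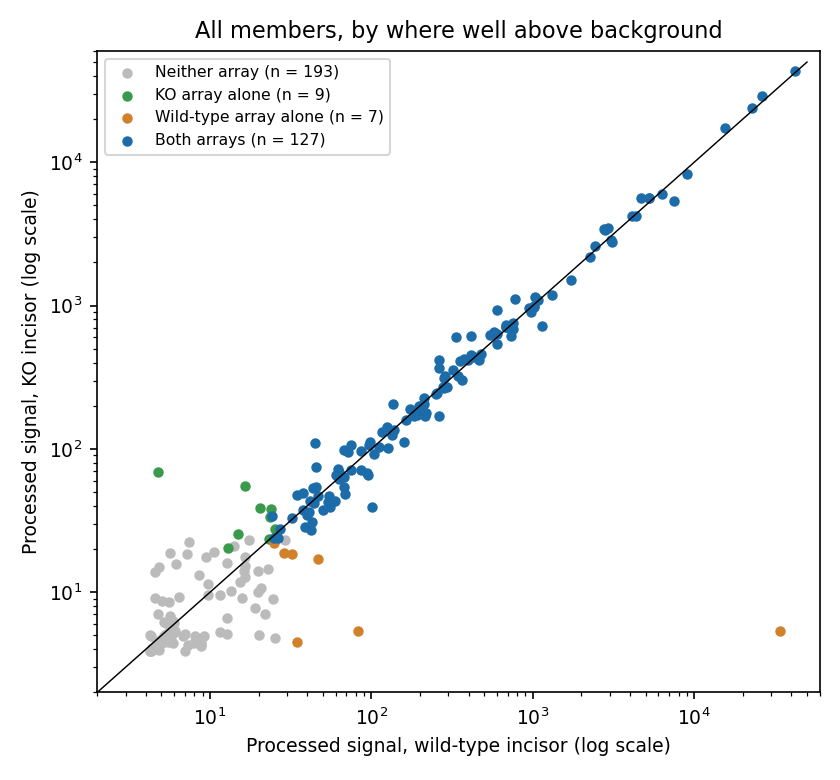
Processed signal of each of the 336 members in the wild-type incisor (horizontal, log scale) and the *Sox21* KO incisor (vertical, log scale), coloured by the arrays on which the scanner software marked the probe as well above background; the line marks equal signals. The 127 members measured on both arrays lie along the line, and 1 lincRNA probe stands far off it with a signal of 34152 in wild-type and 5.38 in KO.

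The members differed by their distance from *Sox21*. The 15 measured members under 2 Mb had a median size of the log2 ratio of 0.451. It was 0.143 over the 40 members from 2 to 5 Mb, 0.141 over 5 members from 5 to 10 Mb, 0.147 over 50 members from 10 to 20 Mb and 0.107 over 17 members farther away. The ratios near *Sox21* went both ways, with 9 above 0 and 6 below and a median of 0.08. Past 1.5-fold were 3 of the 15 higher and 1 lower, against 3.03% and 3.87% of all measured probes. Of the 3 higher ones, 2 are overlapping probes of *Dct*. The classes under 2 Mb, from 5 to 10 Mb and farthest away hold under 20 probes each, and the nearest class holds 8 genes, several with overlapping or repeated probes, so its 15 values are not 15 separate transcripts.

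**Figure D2:**
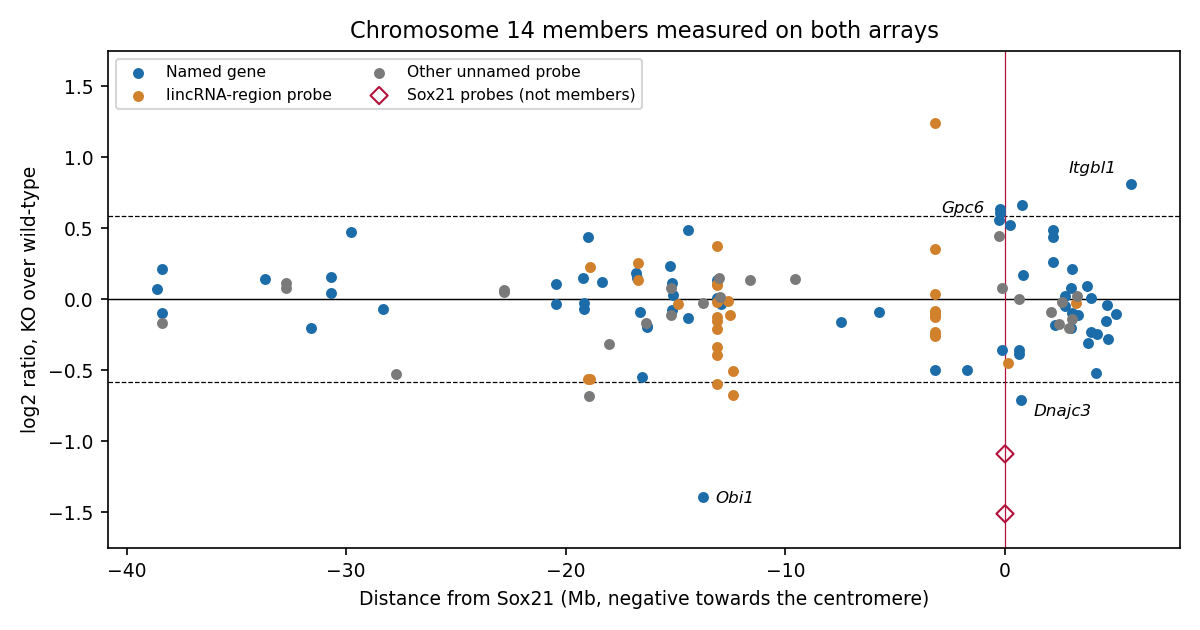
Log2 ratio of *Sox21* KO over wild-type (vertical) against distance from *Sox21* in Mb (horizontal) for the 127 measured members, coloured by kind of probe, with open diamonds for the 2 *Sox21* probes, which are not members, and dashed lines at 1.5-fold. Most members lie near 0 along the whole region, and those beside *Sox21* spread to both sides between -0.71 and 0.66.

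Of the 15 members under 2 Mb, 14 lie within 1 Mb of *Sox21*, with a median size of 0.449, and the other, *Gpc5*, had a size of 0.50. The 112 members beyond 2 Mb had 0.140, below the 0.157 of the rest of the chromosome. Across members, the size of the ratio went down with distance, with a Spearman rho of -0.18 (n = 127) and of -0.43 among probes with a gene name (n = 68). Without the members under 2 Mb rho was -0.02 over all members (n = 112) and -0.17 over those with a gene name (n = 57). All points share the same 2 arrays, and rho is given as a description.

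**Figure D3:**
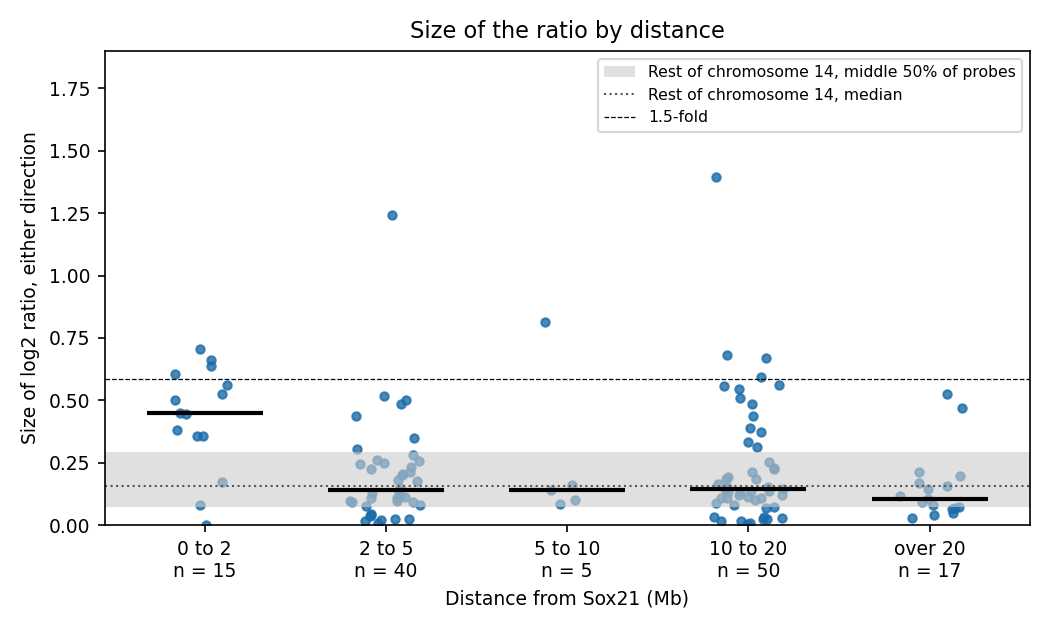
Size of the log2 ratio in either direction (vertical) for measured members in 5 classes of distance from *Sox21* (horizontal, Mb), 1 point for each probe with a bar at the class median; the grey band holds the middle 50% of the probes in the rest of chromosome 14, the dotted line their median, and the dashed line 1.5-fold. The class from 0 to 2 Mb has its median at 0.451, above the band, and the other 4 classes lie between 0.107 and 0.147.

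Probes near *Sox21* were dimmer than the other members, and dim probes vary more, so the sizes were set side by side within classes of signal. The median log2 signal relative to the 75th percentile was -1.27 for members under 2 Mb and -0.14 for all members. Among bright probes, with a mean log2 signal of 0 or more, the 4 members under 2 Mb had a median size of 0.623, all 62 bright members 0.127 and 443 bright probes of the rest of the chromosome 0.115. The 4 are probes of *Abcc4* and *Dnajc3* and 2 overlapping probes of *Dct*. The *Dct* pair, 1 transcript counted at 2 probes, sets that median. In the middle class (-2 to 0) the values were 0.369 for 4 near members and 0.197 for 248 probes of the rest. Among dim probes (-4 to -2) they were 0.447 for 7 near members and 0.273 for 190 probes of the rest. Relative to the scanner error of each probe, the median size was 1.59 times the error under 2 Mb, 0.659 times beyond 2 Mb and 0.693 times in the rest of chromosome 14.

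**Figure D4:**
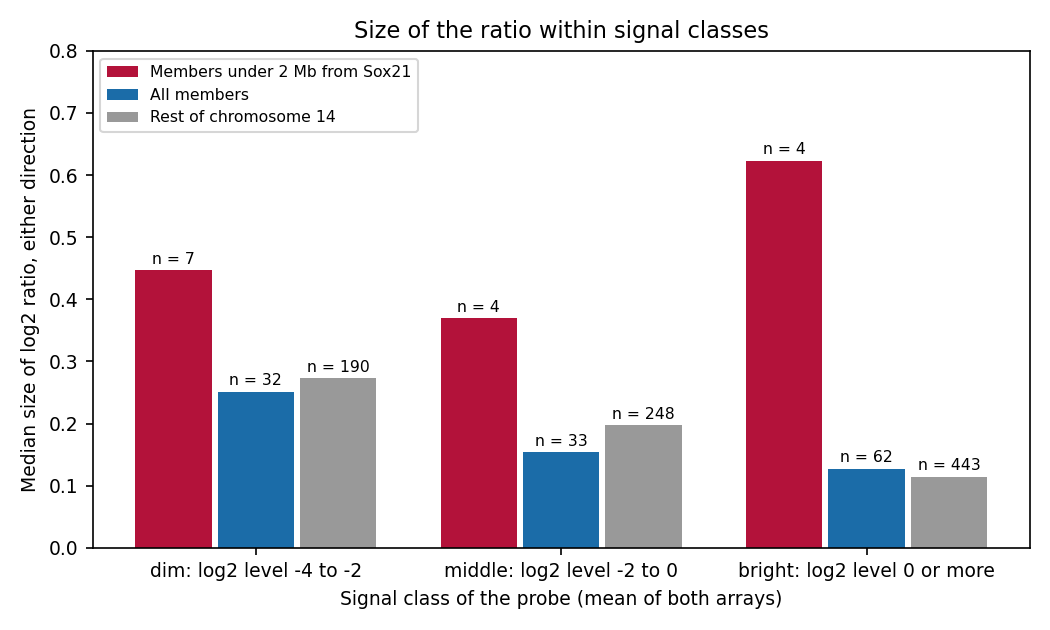
Median size of the log2 ratio in either direction (vertical, bars from 0) in 3 classes of probe signal (horizontal, mean log2 signal of both arrays relative to the 75th percentile), for members under 2 Mb from *Sox21*, all members and the rest of chromosome 14, with the number of probes above each bar. The bar for the near members is the tallest in all 3 classes, with 0.447, 0.369 and 0.623, over 7, 4 and 4 probes. Of the 4 bright ones, 2 are overlapping probes of *Dct*.

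The background correction and the filter on dim probes each moved the near class by more than 1.5 times. With normexp background correction, which shrinks the ratios of dim probes, the near median size was 0.270 and that of the rest of the chromosome 0.118. With all 36 members under 2 Mb, dim ones included, it was 0.216 against 0.190 in the rest. Of those 36 members, 18 were above background on neither array, 1 in wild-type alone and 2 in KO alone.

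On the centromeric side of *Sox21*, *Dct* and *Gpc6* were higher in KO. *Dct* encodes dopachrome tautomerase, a melanin-synthesis enzyme of melanocytes, and its gene is the one next to *Gpc6* 0.22 Mb from *Sox21*. The *Dct* probe at chr14:118412029-118412088 gave a signal of 597 in wild-type and 936 in KO, a log2 ratio of 0.61 with a scanner error of 0.20 (1.52-fold). The second *Dct* probe, at chr14:118412013-118412072, gave 261 and 418, a log2 ratio of 0.64 with a scanner error of 0.21. The KO array was higher at both, and the pair overlaps in target, so they are not 2 separate measurements of the transcript.

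*Gpc6*, a glypican that carries heparan sulphate chains at the cell surface, gave 136 in wild-type and 207 in KO at chr14:118375311-118375370, a log2 ratio of 0.56 with a scanner error of 0.21. An unnamed minus-strand probe beside it had signals of 24.3 and 34.2 and a log2 ratio of 0.45 with a scanner error of 0.39. *Gpc5*, the other glypican, lies 1.71 Mb from *Sox21* and went the opposite way, with 39.0 in wild-type and 28.4 in KO and a log2 ratio of -0.50 with a scanner error of 0.39. The glypican pair thus differed in direction, and the *Gpc5* signal was close to the lowest that counted as measured, which was 21.3 for wild-type and 19.5 for KO.

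*Tgds*, which encodes a nucleotide-sugar dehydratase, is the measured gene closest to *Sox21*, at 0.12 Mb. Its signal was 126 in wild-type and 101 in KO, a log2 ratio of -0.36 with a scanner error of 0.22. *Gpr180*, a G protein-coupled receptor family gene still closer to *Sox21*, was dim on both arrays, with 25.3 in wild-type, not well above background, and 27.6 in KO. An unnamed plus-strand probe at chr14:118445986-118446044, between *Dct* and *Tgds*, had a signal of 83.2 in wild-type and 5.34 in KO. Being above background in wild-type alone, it was at least 4.40-fold lower in KO. Another unnamed probe, 0.14 Mb from *Sox21*, had 174 and 190, a log2 ratio of 0.08.

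On the distal side, *Abcc4* was higher and *Dnajc3* lower in KO. *Abcc4*, an exporter of organic anions such as cyclic nucleotides and prostaglandins, gave 415 in wild-type and 614 in KO at chr14:118882104-118882163, a log2 ratio of 0.52 with a scanner error of 0.21. *Dnajc3*, a co-chaperone of the endoplasmic reticulum that restrains the stress kinase PERK, gave 1142 and 720 at chr14:119378131-119378190, a log2 ratio of -0.71 with a scanner error of 0.20 (1.63-fold lower). Its promoter window with the spaced CCAAT and CCACG is shown above. *Uggt2*, a glycoprotein glucosyltransferase relative of the same compartment, adjoins it. One *Uggt2* probe had 45.6 in wild-type and 74.3 in KO, a log2 ratio of 0.66, and the other 62.3 and 72.2, a log2 ratio of 0.17. Its probes had scanner errors of 0.29 and 0.25 and differed from each other by 0.49.

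*Dzip1*, a zinc finger protein of the ciliary basal body with a role in Hedgehog signalling, was lower at both of its measured probes. The signals were 215 in wild-type and 170 in KO (log2 ratio -0.38) and 67.2 and 54.0 (log2 ratio -0.36). A lincRNA probe 0.14 Mb from *Sox21* had 49.9 and 37.6, a log2 ratio of -0.45. *Hs6st3*, a heparan sulphate sulphotransferase, and *Oxgr1*, a receptor for oxoglutarate, were above background on neither array. Of the 9 genes listed as nearest neighbours of *Sox21*, 7 were measured, with a median of 0.17, 4 above 0 and 3 below, *Dct* past 1.5-fold higher and *Dnajc3* past it lower. With normexp background correction the *Dct* probes were at 0.52 and 0.49, no longer past 1.5-fold, and *Dnajc3* at -0.66 still was. Over all measured genes the median was 0.01, with 3.21% past 1.5-fold higher and 2.98% past it lower.

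**Figure D5:**
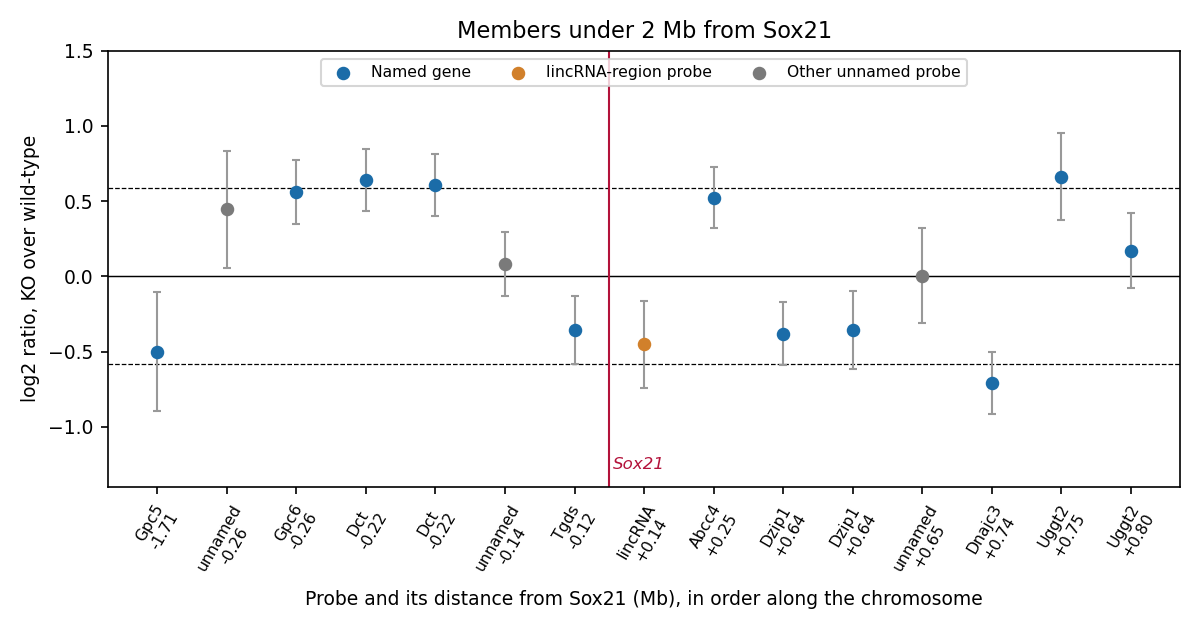
Log2 ratio of *Sox21* KO over wild-type (vertical) for the 15 measured members under 2 Mb from *Sox21*, in order along the chromosome with the distance in Mb under each name; bars give the scanner error of 1 spot, dashed lines mark 1.5-fold and the red line the place of *Sox21*. Higher and lower genes lie on both sides, from *Gpc5* at -0.50 through *Gpc6* and *Dct* at 0.56 to 0.64 to *Tgds* at -0.36, and on the other side from *Abcc4* at 0.52 to *Dnajc3* at -0.71 and *Uggt2* at 0.66 and 0.17.

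The genes that the rule leaves out sit among these members. *Cldn10*, a claudin 0.64 Mb from *Sox21*, had 2013 in wild-type and 2670 in KO, a log2 ratio of 0.37. *Klf5*, *Scel* and *Fgf14* had log2 ratios of 0.49, 1.44 and -0.25 at their measured probes, and *Spry2* was not well above background. Put back together with *Sox21*, they changed the median size of the near class from 0.451 to 0.476.

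The values beside *Dct* were compared with the other genes of melanocytes, since a single melanocyte gene cannot tell a neighbour of *Sox21* from a cell type. Of 7 melanocyte markers, 4 were measured. *Mitf*, the melanocyte transcription factor, had 387 in wild-type and 787 in KO, a log2 ratio of 0.98. *Kit*, the receptor for stem cell factor that other cells also express, had 347 and 533, a log2 ratio of 0.57. *Tyr*, which encodes tyrosinase, had 38.8 and 54.3 (0.44), and *Pmel*, a melanosome matrix protein, 32.6 and 31.6 (-0.09). *Tyrp1*, *Mlana* and *Slc45a2* were above background on neither array. The summed signal of the 7 was 821 in wild-type and 1429 in KO, mostly from *Mitf* and *Kit*, which cells other than melanocytes also express. The part of melanocytes in the *Dct* ratio was not tested.

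*Ednrb*, the endothelin receptor needed by melanocytes and enteric neurons, is the gene listed here with *Dct* for melanocytes and the neural crest. It lies 14.4 Mb from *Sox21*. Its brighter probe had 133 in wild-type and 125 in KO, a log2 ratio of -0.13, and its other probe 68.0 and 98.1, a log2 ratio of 0.49. The probes of *Ednrb* therefore disagreed in direction. Among other cell types, the 4 measured leukocyte markers had a median log2 ratio of 0.27, 4 endothelial markers 0.35, 4 cartilage markers 0.26, 3 Schwann cell markers -0.05, 4 neuron markers -0.16 and 5 skeletal muscle markers -0.35. The summed signal of the endothelial markers was 13413 in wild-type and 13811 in KO, with *Pecam1* and *Tek* at 0.62 and 0.64 and *Kdr* and *Cdh5* at -0.02 and 0.07. That of the cartilage markers was 3635 and 5832, with *Col2a1* at 0.74, and that of the leukocyte markers 10355 and 13204. The summed signal was 15293 in wild-type and 11060 in KO for the muscle markers, mostly from *Acta1* (-0.59) and *Tnnc2* (-0.59), while *Myh3* was at 0.64. It was 17862 and 13499 for the neuron markers, mostly from *Tubb3* (-0.57) and *Snap25* (-0.44), while *Stmn2* and *Elavl4* were at 0.12 and 0.27. The 7 markers of ameloblasts and dental epithelium had a median of 0.08 and the 5 of odontoblasts and dental mesenchyme 0.15, and all 12 were measured. The enamel protein gene *Enam* was at -0.65 and *Dmp1*, a dentin matrix gene, at 0.93, the only one past 1.5-fold in each list. The part of these cell types in the ratios of the region was not tested.

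Between 2 and 6 Mb beyond *Sox21*, *Itgbl1* was the only gene past 1.5-fold. *Mbnl2*, a muscleblind regulator of splicing, had ratios above 0 at all 3 of its probes, none past 1.5-fold. The signals were 778 in wild-type and 1121 in KO (log2 ratio 0.48), 2768 and 3415 (0.26), and 261 and 365 (0.44). *Itgbl1*, which encodes a secreted protein with integrin-like EGF repeats, lies at the far edge of the region. At chr14:124373214-124373273 it gave 334 in wild-type and 605 in KO, a log2 ratio of 0.81 with a scanner error of 0.21 (1.76-fold), the highest of the measured member genes. Its second probe was above background on neither array.

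Of the genes listed here as enzymes of metabolism, the 4 measured had ratios below 0. The list leaves out *Dct* and *Uggt2*, which also encode enzymes and were above 0, at 0.61 and 0.17 at their brightest probes. *Tgds* at -0.36, *Clybl*, a mitochondrial citramalyl-CoA lyase, at -0.25, *Pcca*, a subunit of propionyl-CoA carboxylase, at -0.15 and *Ggact*, a gamma-glutamylamine cyclotransferase, at -0.04 gave 4 of 4 measured genes below 0. Over all members, 72 of 127 were below 0, and over the whole array 8730 of 18118 measured probes with a gene name. *Clybl* had 204 in wild-type and 177 in KO at its brighter probe, and 93.7 and 67.4 at the other, a log2 ratio of -0.52. Under scaling on the array median *Ggact* was at 0.03, so that 3 of the 4 were then below 0. None of the 4 genes passed 1.5-fold, and the fifth of the list, *Acod1*, was above background on neither array.

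Farther from *Sox21* on the centromeric side, *Obi1* (*Rnf219* in the file) had the lowest ratio of all measured members. It encodes a ubiquitin ligase that acts on the origin recognition complex in DNA replication. Its single probe, at chr14:104877226-104877285 and 13.8 Mb from *Sox21*, had a signal of 100.5 in wild-type and 39.4 in KO, a log2 ratio of -1.39 with a scanner error of 0.27 (2.63-fold lower). With normexp background correction its log2 ratio was -0.70, no longer past 2-fold. It was 1 of 8 measured genes of a broad list made here around ubiquitin, whose median was -0.08, with 2 above 0 and 6 below. *Uchl3*, a deubiquitinating enzyme, had 55.8 and 39.3, a log2 ratio of -0.55 with a scanner error of 0.30. *Ubac2* was at -0.31, and *Mycbp2*, *Ndfip2*, *Commd6* and *Kctd12* lay between -0.09 and 0.23. *Klhl1* was not measured.

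The protocadherins, adhesion proteins of the cadherin superfamily, had ratios above 0 where measured. *Pcdh20* had 75.2 in wild-type and 107.3 in KO, a log2 ratio of 0.47, and *Pcdh17* 285 and 324, a log2 ratio of 0.15. *Pcdh8* was above background on the KO array alone, with 16.4 and 55.0, at least 2.51-fold higher in KO. *Pcdh9* was likewise on the KO array alone at 1 of its 3 probes, with 20.5 and 38.9, at least 1.77-fold higher, and at the others on neither array. The 4 genes lie between 25 and 39 Mb from *Sox21*. The class beyond 20 Mb had the lowest median size of the ratio, 0.107, but this depends on the processing. With normexp background correction it was 0.122, against 0.104 from 10 to 20 Mb.

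Among transcription factors and cofactors, *Dach1*, *Klf12* and *Lmo7* were measured, with log2 ratios of -0.03, 0.12 and -0.20, and *Pou4f1*, *Zic2* and *Zic5* were above background on neither array. Of the Slitrk family of neuronal membrane proteins only *Slitrk6* was measured, with 972 in wild-type and 895 in KO, a log2 ratio of -0.16. The genes of RNA processing and translation, *Rbm26*, *Dis3*, *Tdrd3* and *Mbnl2*, lay at their brightest probes between -0.03 and 0.26. Besides *Dnajc3* and *Uggt2*, the genes of the endoplasmic reticulum and Golgi included *Tm9sf2* at 0.01 and *Tmtc4* at -0.28.

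The 5 genes of mitosis and the centrosome, *Diaph3*, *Bora*, *Mzt1*, *Pibf1* and *Dzip1*, ranged from -0.38 to 0.44 with a median of -0.07. *Pibf1*, a centrosomal protein, was the highest of them and dim, with 34.4 in wild-type and 48.0 in KO and a scanner error of 0.32. The 6 genes of trafficking and small GTPase signalling, *Farp1*, *Dock9*, *Tbc1d4*, *Rap2a*, *Ipo5* and *Stk24*, lay at their brightest probes between -0.18 and 0.22. The receptors and channels *Gpr183* and *Nalcn* were at 0.09 and -0.10, and *Gpr18* was not measured. The transporter *Slc15a1* and the secreted or matrix proteins *Olfm4* and *Cnmd* were not measured.

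The non-coding members gave the highest single ratio. Of 134 lincRNA probes, 34 were measured, with a median log2 ratio of -0.11 and a range from -0.67 to 1.24. The plus-strand probe printed above had a signal of 44.99 in wild-type and 109 in KO, a log2 ratio of 1.24 with a scanner error of 0.29, the only measured member past 2-fold higher. With normexp background correction it was 0.60, and no member was then past 2-fold higher. The minus-strand probe over the same bases had 37.8 and 49.6, a log2 ratio of 0.35. The other 2 measured plus-strand probes of that lincRNA region, chr14:115423660-115463160, were at -0.11 and 0.04, so the high ratio belonged to 1 of its 3 measured plus-strand probes. They include the bright probe at 6314 in wild-type and 6023 in KO.

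The same stretch, 3.19 Mb from *Sox21*, holds *Mir17hg*, the host transcript of the Mir17 microRNA cluster, whose microRNAs promote growth of many cell types. Its probe had 59.6 in wild-type and 43.4 in KO, a log2 ratio of -0.50. The lincRNA probe with the identical sequence printed above had 54.6 and 47.3, a log2 ratio of -0.25. Both were lower in KO, and the same 60 bases thus gave values 0.25 apart on these arrays, at signals near 50.

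Elsewhere the probes of a lincRNA region also disagreed. The region chr14:105497388-105511063 had 6 measured minus-strand probes, from -0.59 to 0.37, with 3 above 0 and 3 below. The brightest of the 6 had 321 in wild-type and 356 in KO, a log2 ratio of 0.11, and the lowest ratio came from a probe at 95.9 and 65.3. A minus-strand probe of the region chr14:106250821-106261843 had 42.0 and 27.2, a log2 ratio of -0.67 with a scanner error of 0.37. Over the 21 genes and lincRNA regions with several measured probes, the highest and lowest probe differed by a median of 0.18, by under 0.25 in 13 and by over 1 in 1. Over the 15 genes alone the median was 0.14.

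The lincRNA probe at chr14:99753321-99753380, printed above, gave the widest gap of all members. Its signal was 34152 in wild-type and 5.38 in KO, and the bound is at least 1805-fold lower in KO. It was a single spot on each array, and the scanner software marked neither as an outlier. The other 2 minus-strand probes of that lincRNA region, which lie beside it, had 4.56 and 5.99 in wild-type and 13.7 and 5.38 in KO, above background on neither array. Whether the bright spot reflects a transcript was not tested. The members *Pcdh8* and *4930452G13Rik*, seen on the KO array alone, also passed a bound of 2-fold. The latter, a gene of the RIKEN series without an assigned function, had 4.76 and 69.2, at least 3.16-fold higher. Of the 16 members on 1 array alone, 5 had a bound past 2-fold, 2 higher and 3 lower in KO, where 5.61% and 12.8% of all 2444 such probes had. The last of the 5 was a lincRNA probe with 46.9 and 17.0, at least 2.48-fold lower.

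The remaining unnamed members past 1.5-fold or near it were lower in KO. An unnamed minus-strand probe at chr14:99671661-99671720 had 262 in wild-type and 169 in KO, a log2 ratio of -0.68 with a scanner error of 0.21. Another, 27.7 Mb from *Sox21*, was bright, with 7457 and 5335, a log2 ratio of -0.52. The lincRNA probes 19.0 and 18.9 Mb from *Sox21* had 160 and 111 and 69.1 and 48.2, both with a log2 ratio of -0.56. Just inside the limit of the region, *Sugt1*, a co-chaperone of the kinetochore, had 5222 and 5654, a log2 ratio of 0.07, and *Cnmd* was not measured. Just outside it, *Wbp4*, a splicing factor, had 88.4 and 113, and *Elf1*, an ETS transcription factor, 99.1 and 118 and 601 and 749 at its probes.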

How the data were processed

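Total RNA of wild-type and *Sox21* KO incisor, 1 sample of each, was labelled with Cy3 and hybridized to SurePrint G3 Mouse GE 8×60K arrays by the authors. The deposited intensity of each spot is the processed signal of Agilent Feature Extraction 10.7.3.1, with background removed within the array, and the deposited value table holds the ratio of that signal to 1 number per array. That number is the 75th percentile over all spots of the array. Coordinates are those of mm9 in the deposited files, and the reference genome itself was not used here. The paper's methods name a percentile shift and a filter on low signals without thresholds, and state another age than the labels.

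Spots marked as outliers on either array (267, 0 in the region) were left out, and each signal was divided by that percentile, taken to log2 and averaged over the spots of a probe. The log2 ratio is KO minus wild-type. A probe on 1 array alone was given a bound, its normalized signal divided by that of the other array or, if larger, by the lowest normalized signal that passed there. Names came from RefSeq genes (GRCm38.p6): the accession named 97 members, the current symbol 13 and a synonym 2, while 224 had no match. In counts of genes, the brightest measured probe stands for its gene. Distance runs from the middle of a probe to that of the nearer *Sox21* probe. Whether a probe lies in an exon or an untranslated part of its gene was not analysed here.

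The members, lists and bins were chosen with earlier results of these data known. The rule for named genes takes the 10 largest ratios in each direction, all members past 2-fold, the 6 nearest measured genes on each side, the members of role lists, bounds past 2-fold, disagreeing probes and the probes at the limit of the region. Some members of these lists are not reported here. No test was run, and with 2 arrays, 1 per genotype, the number of arrays limits the precision. The steps were tested on simulated data. Alternatives covered scaling, background correction (limma 3.58.1, normexp with offset 50), the filter, the unit and the limit of the region. Python 3.11.15, numpy 2.4.6, pandas 2.3.3, scipy 1.17.1, matplotlib 3.10.9 and R 4.3.3 were used.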

Additional observations from a re-analysis of the deposited data

How the results depend on the processing

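Of 226 recomputed summary values, 200 stayed within 1.5 times or within the spread of the members, and 26 moved further. Medians near 0 changed sign between settings, that of all members being 0.04 under scaling on the array median. Of the 10 members past 1.5-fold, under 5 scalings each, 42 of 50 values stayed past it and 8 did not, 6 of them under normexp background correction. The direction was kept in all 50. Under normexp, 2 members were past 1.5-fold higher and 2 lower (against 1.08% and 1.43% of all measured probes), and the median size under 2 Mb from *Sox21* was 0.27. Without a filter on dim probes, 22 members were higher and 32 lower (against 6.85% and 9.25% of all probes), the median of all members was -0.15, that under 2 Mb -0.15 with a size of 0.22, that from 10 to 20 Mb -0.16 and that beyond 20 Mb -0.13, and 8 of 15 lists had a gene past 1.5-fold, 5 with the filter. This setting moved the median of all probes by -0.14. With bright probes alone, 3 members were higher and 1 lower (against 1.72% and 1.99% of all bright probes). The near median was then 0.57 with a size of 0.62, over 4 probes, 2 of them of *Dct*. The median from 5 to 10 Mb was 0.14. With the brightest probe per gene, 2 were higher and 2 lower (against 3.21% and 2.98% of all measured genes), and the near median was -0.093. With the mean over probes there were 2 and 2 (against 3.13% and 2.75%). With named genes alone, an alternative chosen after seeing the data, 4 were higher and 2 lower (against 3.16% and 3.14% of all measured probes with a gene name). The near median was then 0.17. At 2-fold, 1 was higher and 1 lower (against 0.635% and 0.793% of all measured probes). Over measured members, 21 of 127 ratios changed sign under an alternative, none of them past 1.5-fold. No paired analysis was possible because each genotype has 1 array. Signal over background limits the dim members, of which 193 were on neither array and 16 on 1 array alone, all without a ratio.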
